A study of Rattus norvegicus with 18 samples.

Results

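The extracellular matrix of the rat ovarian follicle was followed through 41 listed genes that encode matrix glycoproteins, proteoglycans and the enzymes that crosslink or process matrix. A gene was represented by the probe sets that carry its symbol alone in the platform's annotation, and where a gene had several, by the one with the highest mean signal. By this rule 40 of the 41 genes were measured, among 14217 genes in the whole series, and Thbs1 was not analysed here. The 40 comprised 11 genes of the basement membrane and 29 genes of the stromal matrix. A filter on dim probe sets passed 38 of them to the tests and left out Thbs2 and Mfap5, both stromal.

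Follicles had been cut by laser microdissection from 8 µm frozen ovary sections of Crl:CD(SD) rats, and RNA was hybridised to 18 arrays, 3 per group, with 15 follicles collected in each phase. RU UF were unruptured follicles at 10:00 of estrus after 100 mg/kg RU486, an antagonist of the progesterone receptor, given once by mouth at 10:00 of proestrus. IM UF were unruptured follicles at the same hour after 4 mg/kg indomethacin, an inhibitor of prostaglandin synthesis, given once by mouth at 16:00 of proestrus. Control PoF were ruptured, post-ovulatory follicles at 10:00 of estrus from untreated rats. RU PeF, IM PeF and control PeF were the corresponding follicles at 22:00 of proestrus, before rupture. The labels give no genotype and no age for these rats, and describe the controls as untreated, not as given vehicle. At estrus the treated follicles had not ruptured and the control follicles had, so drug and rupture cannot be told apart there. The design text states 3 animals per group but the labels do not tie a sample to an animal, so p-values measure the spread between these samples, which may in part be technical.

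The granulosa layer of a follicle rests on a basement membrane built from laminins, nidogens, perlecan, agrin and type IV collagen, which separates it from the theca. Each laminin is a trimer of an alpha, a beta and a gamma chain. Outside this sheet lies a stromal matrix of fibrillar collagen, fibronectin, elastic fibres and small leucine-rich proteoglycans such as lumican and decorin, made largely by fibroblasts and theca cells. Lysyl hydroxylases (Plod genes) modify collagen inside the cell, the procollagen C-proteinase enhancer (Pcolce) speeds removal of its propeptide, and lysyl oxidases (Lox genes) crosslink collagen and elastin outside the cell. Ovulation breaches this wall, and the follicle is then rebuilt into a corpus luteum.

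Promoter sequences from RefSeq (build GRCr8) are shown for 4 genes on which the results turn: Lama1 and Hspg2, which rose overnight in every treatment, Lama2, which fell, and Plod2, which fell in both treated courses. Each runs from 250 bases before to 50 bases after the annotated start, 5′ to 3′ on the gene's own strand, which is the plus strand for all 4. Capitals mark 5 motifs searched on either strand. They were GGGCGG for the GC box, TATAAA for the TATA box, CCAAT for the box of that name, TGTTCT for the hexamer of steroid hormone receptors and ACGTG for the core of a hypoxia response element.
Lama1, chr9:115139298-115139597: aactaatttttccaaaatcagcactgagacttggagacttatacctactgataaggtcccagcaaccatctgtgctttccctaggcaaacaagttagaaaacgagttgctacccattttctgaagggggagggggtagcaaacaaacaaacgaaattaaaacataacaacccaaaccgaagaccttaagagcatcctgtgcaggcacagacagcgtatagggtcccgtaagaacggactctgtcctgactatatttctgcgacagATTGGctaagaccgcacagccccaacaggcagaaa
Lama2, chr1:19491896-19492195: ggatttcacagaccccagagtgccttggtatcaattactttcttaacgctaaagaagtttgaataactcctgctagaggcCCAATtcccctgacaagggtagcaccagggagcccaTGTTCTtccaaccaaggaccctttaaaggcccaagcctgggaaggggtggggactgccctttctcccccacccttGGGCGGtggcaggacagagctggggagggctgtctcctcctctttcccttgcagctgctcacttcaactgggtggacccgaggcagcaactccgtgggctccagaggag
Hspg2, chr5:154960596-154960895: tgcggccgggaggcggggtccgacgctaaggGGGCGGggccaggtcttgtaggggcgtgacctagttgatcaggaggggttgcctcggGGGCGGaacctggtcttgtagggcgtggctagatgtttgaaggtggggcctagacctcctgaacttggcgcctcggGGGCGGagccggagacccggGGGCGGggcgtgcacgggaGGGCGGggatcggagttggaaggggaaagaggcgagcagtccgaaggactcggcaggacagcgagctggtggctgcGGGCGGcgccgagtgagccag
Plod2, chr8:101964068-101964367: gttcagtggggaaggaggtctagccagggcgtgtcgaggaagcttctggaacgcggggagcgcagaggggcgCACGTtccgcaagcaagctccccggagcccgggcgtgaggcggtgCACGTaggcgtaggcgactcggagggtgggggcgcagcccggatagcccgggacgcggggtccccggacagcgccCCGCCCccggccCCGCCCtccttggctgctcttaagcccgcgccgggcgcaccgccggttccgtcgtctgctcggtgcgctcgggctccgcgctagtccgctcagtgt
The Hspg2 window held 6 GGGCGG matches, and the Plod2 window held 2 GGGCGG and 2 ACGTG matches. Of the 40 measured genes, 29 matched a promoter in the table. GGGCGG was found in 16 of these 29 (55.2%), against 34.9% of all 27457 promoters, and ACGTG in 4 of 29, against 19.7%. TGTTCT was found in 3 of 29, against 20.1% of all promoters, TATAAA in 5, against 14.3%, and CCAAT in 9, against 37.7%. Median GC content was 60% in the 29 windows and 52.3% in all. These matches describe letters in a window and are not measured binding sites.

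Levels below are log2 of the normalised array signal plus a pseudocount of 2.8, and differences are given in the same log2 units with the standard error of the limma fit. A fold change taken from this scale understates the change of dim genes. A gene was called when its adjusted p (limma, Benjamini-Hochberg over 18155 tested probe sets) was under 0.05. An exact permutation test of 3 samples against 3 cannot go below p = 0.1, so no single-gene permutation p is given. Array brightness varied widely, with median signals between 4.4 and 27.4, and control PeF 3, IM PeF 2 and IM UF 2 were the dimmest. A gene was counted as at background in a group only when none of the group's arrays lay above background. By this rule no granulosa marker (9 genes) was at background in any group. Of the theca markers, Cyp17a1 was at background in IM UF, and Gli1 in control PoF and RU PeF. The 3′ minus 5′ log2 signal of the Gapdh control probe sets, a sign of RNA integrity, was 3.27, 2.86 and 3.09 in RU UF, 2.19, 3.86 and 2.62 in IM UF, 2.31, 2.07 and 2.29 in control PoF, 2.95, 2.75 and 2.66 in RU PeF, 2.59, 3.63 and 2.76 in IM PeF, and 4.11, 2.96 and 4.10 in control PeF. Control PoF lay below control PeF and RU UF above control PoF on this measure, and RU PeF below control PeF, with no overlap, while the times overlapped under both drugs. Its part in the differences between these groups was not tested. In bulk samples of this kind, fewer cells of a type and less RNA per cell cannot be told apart.

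**Figure D1:**
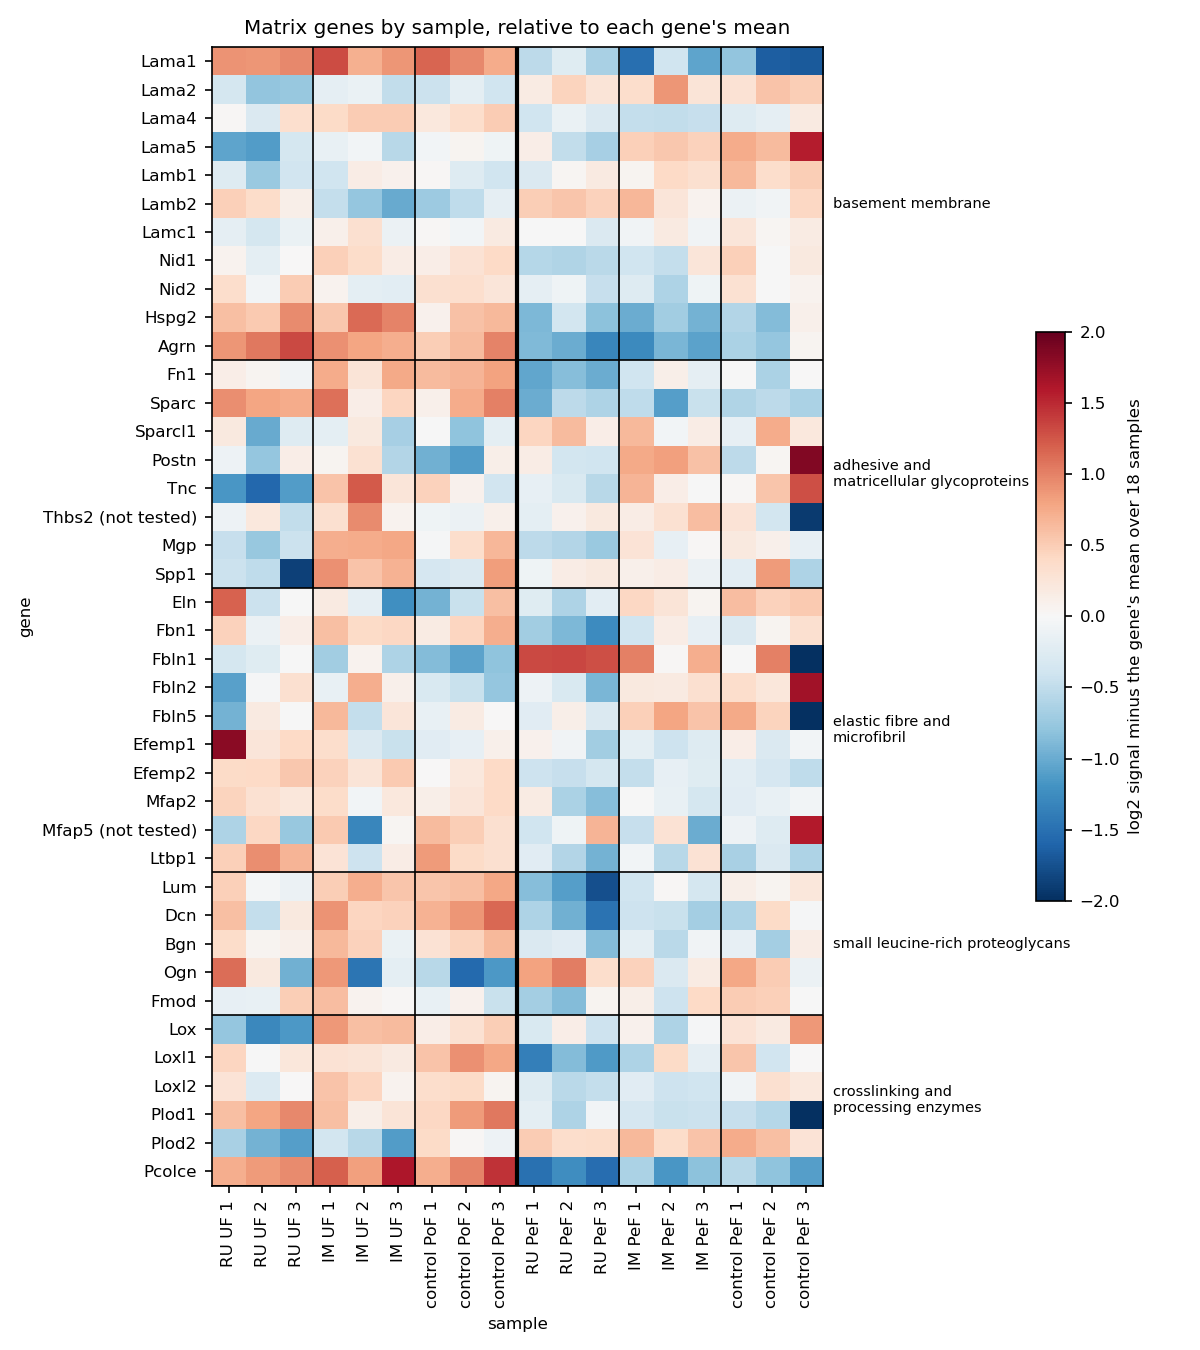
Heat map of the 40 measured genes (rows, grouped by role) in the 18 samples (columns, RU UF, IM UF, control PoF, RU PeF, IM PeF, control PeF, 3 each). Colour is each gene's normalised log2 signal minus its own mean over the 18 samples; Pcolce, Agrn and Lama1 separate the estrus samples from the proestrus samples in each treatment.

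Overnight, from 22:00 of proestrus to 10:00 of estrus, matrix genes rose more often than they fell in each of the 3 treatments. Under RU486, 23 of the 38 tested genes were called, 18 higher and 5 lower, against 38.8% of all tested probe sets called (19.0% higher and 19.9% lower). Under indomethacin 19 were called, 15 higher and 4 lower, against 33.3% (16.3% higher and 17.0% lower). In untreated rats, where the Gapdh measure also differed between the times, 20 were called, 14 higher and 6 lower, against 39.6% (21.0% higher and 18.5% lower). The median difference over the 38 genes was 0.52 under RU486, 0.40 under indomethacin and 0.14 in controls, where the medians over all tested probe sets were -0.02, -0.03 and 0.04. All 3 later samples lay beyond all 3 earlier ones in 24 of 38 genes under RU486, 21 under indomethacin and 20 in controls, against 57.6%, 46.0% and 49.1% of all tested probe sets. The 3 courses share no samples. No member was called for the RU486 course against the control course, where 4.02% of all tested probe sets were (2.18% higher and 1.84% lower), and 9 of 38 members had an unadjusted p under 0.05, against 19.0% of all. None was called for the indomethacin course against the control course, as was none of all probe sets (0.0%), and again 9 had an unadjusted p under 0.05, against 9.04% of all. Lama1, Hspg2, Agrn, Fn1, Sparc, Efemp2, Lum, Dcn and Pcolce rose in all 3, which is 9 of 38 (23.7%), against 10.0% of all tested probe sets. Lama2 fell in all 3, 1 of 38 (2.63%) against 9.26% of all. The deposited signals before normalisation gave the opposite sign for the control fall of Lama2, as they did for the other 5 genes that fell in the control course. On those unnormalised signals no member was called in the RU486 and indomethacin courses, in the comparisons of RU486 groups with control or IM groups, or for the difference between the RU486 and indomethacin courses.

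**Figure D2:**
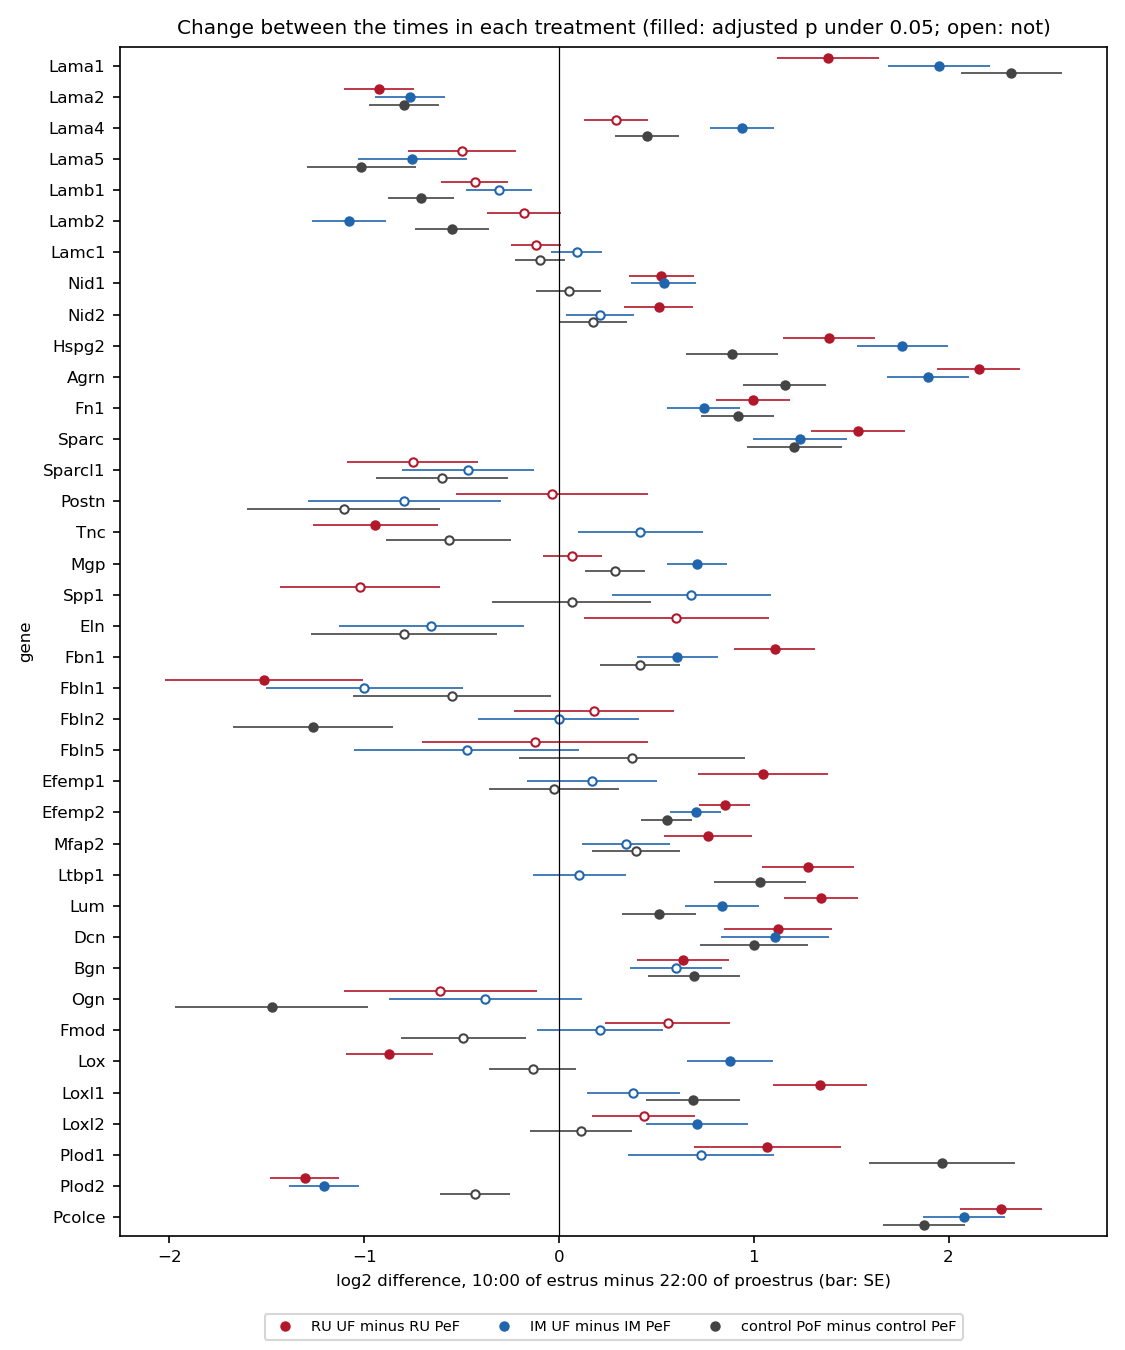
Overnight difference (log2 units, later minus earlier, bars are standard errors, n = 3 against 3) for each tested gene under RU486, indomethacin and no treatment. Filled symbols passed an adjusted p of 0.05; Pcolce, Agrn and Lama1 lie to the right of zero in every course, and Lox lies on opposite sides under RU486 and indomethacin.

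Within the basement membrane, the alpha chain gene Lama1 and the heparan sulphate proteoglycan genes Agrn and Hspg2 rose in every course, and the other laminin chain genes changed in both directions or were not called. Lama1 encodes the laminin alpha-1 chain. Lama1 stood at 8.65, 8.63 and 8.70 in RU UF, against 7.22, 7.51 and 7.10 in RU PeF. Its values were 9.05, 8.46 and 8.63 in IM UF, against 6.24, 7.35 and 6.70 in IM PeF. Control PoF had 8.92, 8.71 and 8.49, against 6.96, 6.10 and 6.08 in control PeF. The later samples lay above all the earlier ones in each course. Lama1 rose 2.61-fold under RU486 (1.38 ± 0.26, adjusted p = 0.000409), 3.87-fold under indomethacin (1.95 ± 0.26, adjusted p = 1.91e-05) and 5-fold in controls (2.32 ± 0.26, adjusted p = 2.74e-06).

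Agrn encodes agrin, a heparan sulphate proteoglycan that binds laminin. Agrn stood at 8.10, 8.27 and 8.54 in RU UF, against 6.33, 6.22 and 5.91 in RU PeF. In IM UF it stood at 8.13, 8.01 and 7.94, against 5.95, 6.30 and 6.15 in IM PeF. In control PoF it stood at 7.71, 7.85 and 8.21, against 6.58, 6.44 and 7.27 in control PeF. Agrn rose 4.45-fold under RU486 (adjusted p = 5.27e-07), 3.71-fold under indomethacin (adjusted p = 2.81e-06) and 2.23-fold in controls (adjusted p = 0.000342), with no overlap of times in any course. Hspg2 encodes perlecan, which links laminin and collagen networks. Hspg2 had 8.65, 8.58 and 9.01 in RU UF, against 7.16, 7.69 and 7.23 in RU PeF. Its levels were 8.59, 9.19 and 9.04 in IM UF, against 7.07, 7.35 and 7.11 in IM PeF. They were 8.14, 8.64 and 8.71 in control PoF, against 7.47, 7.19 and 8.16 in control PeF. Hspg2 rose by 1.39 ± 0.24 under RU486 (adjusted p = 0.000153), 1.76 ± 0.24 under indomethacin (adjusted p = 1.86e-05) and 0.89 ± 0.24 in controls (adjusted p = 0.00616). In controls the times overlapped for Hspg2, and under both drugs they did not. The differences between these courses were not called for Lama1, Agrn or Hspg2.

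Lama2 encodes the laminin alpha-2 chain, known from muscle and nerve basement membranes. Lama2 stood at 7.31, 6.88 and 6.90 in RU UF, against 7.83, 8.10 and 7.92 in RU PeF. Its levels were 7.49, 7.53 and 7.16 in IM UF, against 8.01, 8.55 and 7.91 in IM PeF. In control PoF they were 7.23, 7.46 and 7.27, against 7.95, 8.23 and 8.16 in control PeF. Lama2 changed by -0.92 ± 0.18 under RU486 (adjusted p = 0.000574), -0.76 ± 0.18 under indomethacin (adjusted p = 0.00332) and -0.80 ± 0.18 in controls (adjusted p = 0.00205), and only the control change turned sign in the deposited signals, to 0.69. The beta-2 chain gene Lamb2 had 8.06, 7.76 and 7.53 in IM UF, against 9.20, 8.77 and 8.60 in IM PeF, a change of -1.08 ± 0.19 (adjusted p = 0.000295). In controls Lamb2 changed by -0.55, Lama5 by -1.01 and Lamb1 by -0.71 (adjusted p = 0.0291, 0.00789 and 0.0031), but in the deposited signals the same genes stood at 0.92, 0.44 and 0.75. There the median of all tested probe sets was 1.28, so each of the 4 falling laminin genes lay below that median. Scaling each array to a common median also kept the 4 control changes negative, at -0.42 for Lama2, -0.64 for Lama5, -0.39 for Lamb1 and -0.20 for Lamb2, with none of them called. The control call of Lamb2 was also lost when any one of 3 of the 6 samples was left out (adjusted p up to 0.143). Lama5 also fell under indomethacin (-0.75 ± 0.28, adjusted p = 0.0459), a call that ended without any 1 of the 6 samples compared (adjusted p up to 0.168).

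Of the 7 laminin chain genes, 1 rose and 1 fell under RU486, 2 rose and 3 fell under indomethacin, and 2 rose and 4 fell in controls. Of all tested probe sets 19.0% rose and 19.9% fell under RU486, 16.3% and 17.0% under indomethacin, and 21.0% and 18.5% in controls. Lama4, the alpha chain of vascular basement membranes, had 8.01, 8.13 and 8.14 in IM UF, against 7.16, 7.14 and 7.17 in IM PeF, a rise of 0.94 ± 0.16 (adjusted p = 0.00027). Lama4 also rose in controls by 0.45 (adjusted p = 0.0373), which missed the threshold when any one of 4 of the 6 samples was left out (adjusted p up to 0.136). Nid1, encoding the laminin-collagen linker nidogen-1, rose by 0.53 under RU486 and 0.54 under indomethacin, and Nid2 rose by 0.51 under RU486. Each of these 3 calls was lost without some single samples, with adjusted p up to 0.0679, 0.0889 and 0.13, and under median scaling (adjusted p = 0.1999, 0.0595 and 0.274). Lamc1, the common gamma chain, was called in no comparison, and the level of its chosen probe set ran from 9.22 to 9.89 over the 18 samples. Its other tested probe set was not called either, but it moved differently. In the control course it differed by 1.20 (adjusted p = 0.0678), against -0.10 for the chosen one. In RU PeF minus control PeF it differed by 1.45 (adjusted p = 0.0898), against -0.25.

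**Figure D3:**
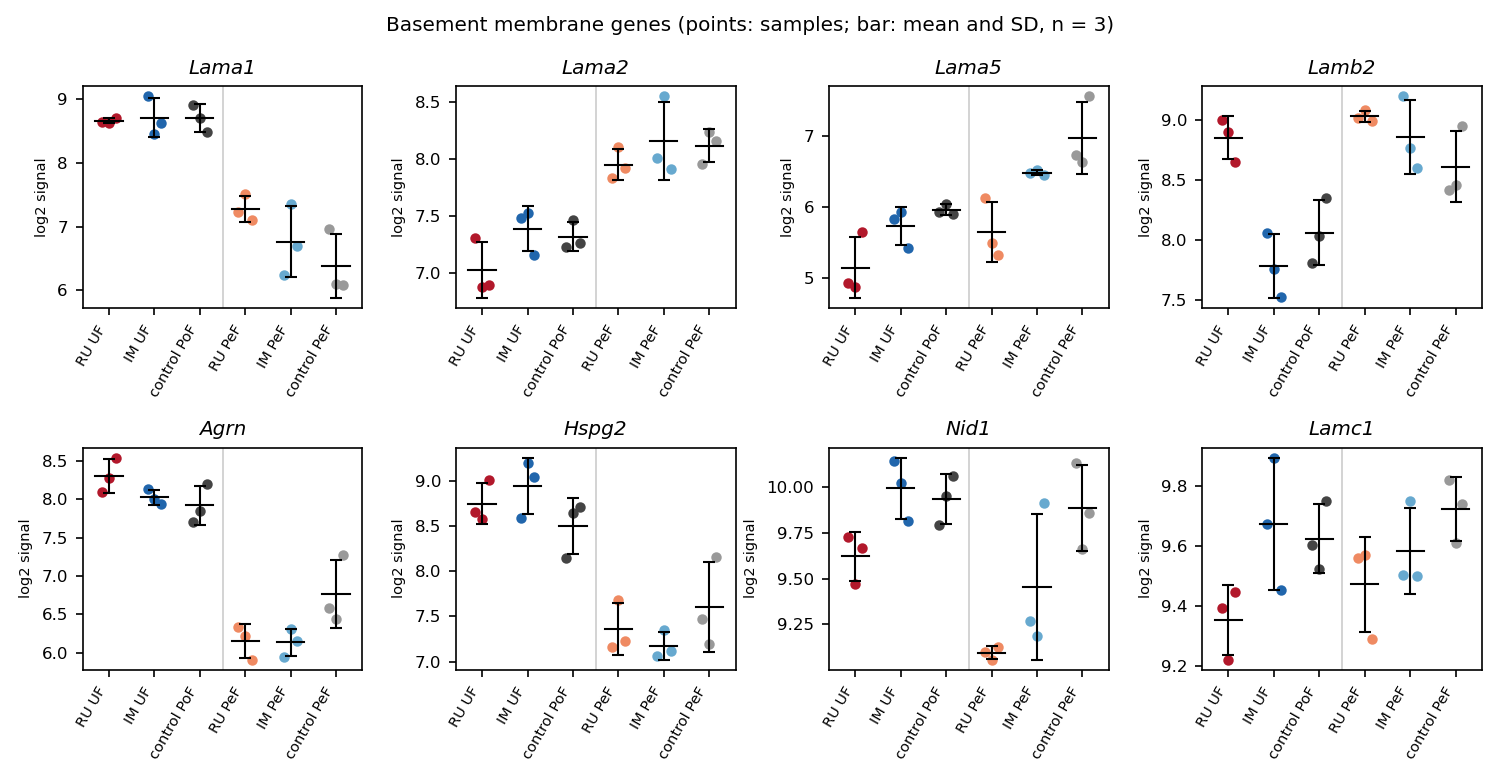
Normalised log2 signal of 8 basement membrane genes in each sample (points) with group means and SD (bars), in the order RU UF, IM UF, control PoF, RU PeF, IM PeF, control PeF. The means of Lama1, Agrn and Hspg2 stand higher at 10:00 of estrus than at 22:00 of proestrus in every treatment.

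In the stromal matrix the enzymes changed in both directions overnight. Pcolce, the procollagen C-proteinase enhancer, had the smallest adjusted p of any member in each course. Pcolce stood at 9.45, 9.58 and 9.67 in RU UF, against 7.23, 7.47 and 7.19 in RU PeF. It was at 9.92, 9.53 and 10.33 in IM UF, against 8.09, 7.56 and 7.90 in IM PeF. In control PoF it was at 9.44, 9.71 and 10.16, against 8.16, 7.91 and 7.62 in control PeF. Pcolce rose 4.82-fold under RU486 (adjusted p = 2.89e-07), 4.22-fold under indomethacin (adjusted p = 9.82e-07) and 3.66-fold in controls (adjusted p = 2.69e-06).

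The lysyl hydroxylase gene Plod2 moved the other way. Plod2 had 10.55, 10.24 and 10.08 in RU UF, against 11.70, 11.54 and 11.55 in RU PeF. It had 10.83, 10.63 and 10.07 in IM UF, against 11.83, 11.55 and 11.76 in IM PeF. Plod2 fell 2.47-fold under RU486 (-1.31 ± 0.18, adjusted p = 1.84e-05) and 2.31-fold under indomethacin (-1.21 ± 0.18, adjusted p = 5.42e-05). In controls the difference was -0.43 ± 0.18 and was not called (adjusted p = 0.0635), and the test of the RU486 course against the control course was not called either (-0.88 ± 0.25, adjusted p = 0.0604). Plod1, another lysyl hydroxylase, had 7.22, 7.65 and 7.86 in control PoF, against 6.33, 6.23 and 4.26 in control PeF. Plod1 rose 2.1-fold under RU486 (adjusted p = 0.031) and 3.91-fold in controls (adjusted p = 0.000501). The control fold was 2.46 without control PeF 3 (adjusted p = 0.00016), an array on which its deposited signal of 4.14 lay under the background of 5.1. The RU486 call was lost when any one of 4 of the 6 samples was left out (adjusted p up to 0.115). Loxl1, an elastin-associated lysyl oxidase, rose by 1.34 ± 0.24 under RU486 (adjusted p = 0.000253) and by 0.69 in controls, and Loxl2 rose by 0.71 under indomethacin. The Loxl1 call in controls and the Loxl2 call were lost without most single samples, with adjusted p up to 0.144 and 0.151, and median scaling also ended the Loxl2 call (adjusted p = 0.0766).

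Lox, which encodes lysyl oxidase itself, was the 1 member called for a difference in overnight change between treatments. Lox stood at 6.74, 6.21 and 6.35 in RU UF, against 7.20, 7.63 and 7.08 in RU PeF. It stood at 8.36, 8.10 and 8.13 in IM UF, against 7.59, 6.88 and 7.48 in IM PeF. Control PoF had 7.64, 7.81 and 7.99, against 7.78, 7.69 and 8.37 in control PeF. Lox changed by -0.87 ± 0.22 under RU486 (adjusted p = 0.00472), rose by 0.88 ± 0.22 under indomethacin (adjusted p = 0.00547) and differed by -0.13 ± 0.22 in controls (adjusted p = 0.659). The RU486 change minus the indomethacin change was -1.75 ± 0.32 (adjusted p = 0.0049), where 2.62% of all tested probe sets were called (1.59% higher and 1.03% lower). A second Lox probe set gave -2.27 for this difference (adjusted p = 0.0099). Neither difference from the control course was called for Lox, with -0.74 ± 0.32 for RU486 minus control (adjusted p = 0.209) and 1.01 ± 0.32 for indomethacin minus control (adjusted p = 0.439).

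Among the adhesive and matricellular glycoproteins, Sparc and Fn1 rose in every course. Sparc encodes a collagen-binding glycoprotein. Sparc had 9.69, 9.54 and 9.51 in RU UF, against 7.76, 8.23 and 8.14 in RU PeF. Sparc had 9.85, 8.88 and 9.19 in IM UF, against 8.24, 7.66 and 8.31 in IM PeF. Control PoF had 8.86, 9.50 and 9.77 for Sparc, against 8.15, 8.23 and 8.12 in control PeF. Its rise was 1.54 ± 0.24 under RU486, 1.24 ± 0.24 under indomethacin and 1.21 ± 0.24 in controls (adjusted p = 7.53e-05, 0.000701 and 0.000748), and its other probe set was called higher in all 3. Fn1 encodes fibronectin, the adhesive glycoprotein that integrins bind. Fn1 had 8.33, 8.38 and 8.50 in control PoF, against 7.69, 7.06 and 7.70 in control PeF. Fn1 rose by 0.9962 under RU486, 0.74 under indomethacin and 0.92 in controls (adjusted p = 0.000416, 0.00543 and 0.000925). Mgp, matrix Gla protein, an inhibitor of mineralisation, rose by 0.71 ± 0.15 under indomethacin (adjusted p = 0.00161). Tnc, tenascin-C, an adhesion-modulating glycoprotein, changed by -0.94 ± 0.32 under RU486 (adjusted p = 0.0265), a call lost when any one of 3 of the 6 samples was left out (adjusted p up to 0.101).

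The elastic fibre group held 1 gene that rose in every course, Efemp2, which encodes fibulin-4. Efemp2 had 9.16, 9.19 and 9.32 in RU UF, against 8.37, 8.32 and 8.43 in RU PeF. It had 9.24, 9.03 and 9.30 in IM UF, against 8.31, 8.63 and 8.54 in IM PeF. Its rise was 0.85 ± 0.13 under RU486, 0.70 ± 0.13 under indomethacin and 0.55 ± 0.13 in controls (adjusted p = 5.82e-05, 0.000457 and 0.00274). Ltbp1 encodes a protein that holds latent TGF-beta in the matrix. It had 9.41, 8.94 and 8.88 in control PoF, against 7.92, 8.27 and 7.94 in control PeF, and rose by 1.28 under RU486 and 1.03 in controls (adjusted p = 0.000343 and 0.00219). Fbn1, the microfibril protein fibrillin-1, rose by 1.11 under RU486 (adjusted p = 0.000389) and 0.61 under indomethacin (adjusted p = 0.0316). The second call was lost when any one of 5 of the 6 samples was left out (adjusted p up to 0.142). In controls Fbn1 differed by 0.42 and was not called (adjusted p = 0.121). Its other probe set rose by 1.26 under RU486 and 1.46 in controls (adjusted p = 0.00174 and 0.000536). Under indomethacin that probe set differed by 0.47 and was not called (adjusted p = 0.22). Under RU486 Mfap2 rose by 0.77, Efemp1 rose by 1.05 and Fbln1 changed by -1.52. Fbln2 changed by -1.26 in controls (adjusted p = 0.0211), against 0.0098 in the deposited signals. All 4 of these calls were lost without some single samples, with adjusted p up to 0.0783 for Mfap2, 0.143 for Efemp1, 0.071 for Fbln1 and 0.117 for Fbln2, and median scaling ended the Mfap2 call (adjusted p = 0.0677).

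Lum and Dcn, for the collagen-binding proteoglycans lumican and decorin, rose in all 3 courses. Lum had 10.99, 10.49 and 10.40 in RU UF, against 9.67, 9.42 and 8.76 in RU PeF. It had 11.01, 11.25 and 11.08 in IM UF, against 10.13, 10.54 and 10.16 in IM PeF. Its rise was 1.34 ± 0.19 under RU486, 0.84 ± 0.19 under indomethacin and 0.51 ± 0.19 in controls (adjusted p = 2.51e-05, 0.00244 and 0.0397), and in controls it was lost when any one of 5 of the 6 samples was left out (adjusted p up to 0.128). Dcn had 8.65, 8.85 and 9.11 in control PoF, against 7.34, 8.33 and 7.93 in control PeF. It rose by 1.12 under RU486, 1.11 under indomethacin and 1.0008 in controls (adjusted p = 0.00361, 0.00497 and 0.00818). Bgn, encoding biglycan, rose by 0.64 under RU486 and 0.69 in controls, with adjusted p up to 0.2 and 0.135 without single samples and of 0.111 under RU486 with median scaling. Ogn, encoding osteoglycin, changed by -1.47 in controls (adjusted p = 0.0248, up to 0.0989 without single samples), against 0.0149 in the deposited signals and -1.10 with median scaling, which ended the call (adjusted p = 0.125).

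Smooth muscle and fibroblast markers rose more often than they fell overnight, and theca markers did not. Of 11 tested smooth muscle and pericyte markers, 7 rose and 1 fell under RU486, 8 rose under indomethacin, and 7 rose and 1 fell in controls. The mean level of the 12 measured ones ran from 5.51 to 5.52 in RU UF, against 4.49 to 4.78 in RU PeF. It ran from 6.18 to 6.34 in IM UF, against 5.08 to 5.21 in IM PeF. In control PoF it ran from 5.91 to 6.19, against 4.80 to 5.33 in control PeF. Cspg4 was at background in control PeF, and no other of these markers was at background in any group. Of 10 fibroblast markers, 5 rose under RU486, 4 under indomethacin and 5 in controls, with none lower. Col1a1 and Col1a2, which also belong to the stromal collagens, were among those that rose in each course. Pdgfrb belongs to both the smooth muscle and the fibroblast list and was counted in both among those that rose in controls. The shares of all tested probe sets were 19.0% higher and 19.9% lower under RU486, 16.3% and 17.0% under indomethacin, and 21.0% and 18.5% in controls. Of 7 tested theca markers, 1 rose and 1 fell under RU486, 3 fell under indomethacin, and 1 rose and 3 fell in controls. The mean level of the 8 measured theca markers ran from 6.78 to 7.10 in RU UF, against 6.71 to 7.31 in RU PeF. It ran from 5.74 to 6.33 in IM UF, against 6.77 to 7.34 in IM PeF. In control PoF it ran from 5.82 to 6.19, against 6.80 to 7.23 in control PeF. The part of these cell types in the overnight rise of the matrix genes was not tested.

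Before rupture, 6 of 27 tested stromal genes and 2 of 11 basement membrane genes were lower under RU486 than in controls. In RU PeF minus control PeF, 9 of 38 tested genes were called, 1 higher and 8 lower, against 7.42% of all tested probe sets (3.4% higher and 4.03% lower). The groups did not overlap in 21 of 38 genes, against 25.0% of all tested probe sets. The stromal median was -0.58 and the basement membrane median -0.25, against 0.06 for all tested probe sets. Lum stood at 9.67, 9.42 and 8.76 in RU PeF, against 10.63, 10.58 and 10.75 in control PeF. Loxl1 stood at 6.39, 6.89 and 6.63 in RU PeF, against 8.31, 7.38 and 7.76 in control PeF. All RU PeF samples lay below the controls for both genes. Lum was 2.59-fold lower (-1.37 ± 0.19, adjusted p = 0.000264) and Loxl1 2.27-fold lower (-1.18 ± 0.24, adjusted p = 0.00589). Fbn1 had 7.19, 6.9975 and 6.63 in RU PeF, against 7.59, 7.94 and 8.21 in control PeF. Mgp had 11.46, 11.39 and 11.24 in RU PeF, against 12.18, 12.08 and 11.82 in control PeF. Fbn1 differed by -0.97 ± 0.21 (adjusted p = 0.00806) and Mgp by -0.66 ± 0.15 (adjusted p = 0.0134), with Mgp at 0.23 in the deposited signals. The other Fbn1 probe set differed by -0.34 and was not called (adjusted p = 0.495). Dcn differed by -0.93 ± 0.28 (adjusted p = 0.0493) and Fn1 by -0.75 ± 0.19 (adjusted p = 0.0209), with Fn1 at 0.15 in the deposited signals. The median of all tested probe sets stood at 0.77 in those deposited signals, and these genes lay below it.

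In the same comparison the basement membrane genes Lama5 and Nid1 were lower and Lama1 was higher. Lama5 encodes the laminin alpha-5 chain, widespread in epithelial basement membranes. Lama5 stood at 6.11, 5.49 and 5.32 in RU PeF, against 6.73, 6.62 and 7.56 in control PeF (-1.33 ± 0.28, adjusted p = 0.00745). Nid1 stood at 9.10, 9.06 and 9.13 in RU PeF, against 10.13, 9.66 and 9.86 in control PeF (-0.79 ± 0.17, adjusted p = 0.00751), but at 0.12 in the deposited signals. The other Nid1 probe set differed by 0.70 in the opposite direction and was not called (adjusted p = 0.412). Lama1 differed by 0.90 ± 0.26 (adjusted p = 0.0441). Lum, Loxl1, Lama5 and Nid1 kept their calls without any single sample. Without RU PeF 3 the count of called genes was 4, and the adjusted p was 0.0536 for Fbn1 and 0.0662 for Mgp. The calls of Fn1, Dcn and Lama1 were lost without most single samples, with adjusted p up to 0.0719, 0.216 and 0.155. Scaling to a common median ended the calls of Loxl1 (adjusted p = 0.0832), Fbn1 (0.123), Nid1 (0.227), Dcn (0.264), Fn1 (0.315) and Mgp (0.358).

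Some collagen, fibroblast, smooth muscle and endothelial genes were lower in the same samples. Of 11 tested stromal collagens 7 were lower in RU PeF than in control PeF, among them Col3a1 (-1.13 ± 0.15, adjusted p = 0.000189). In this comparison 3.4% of all tested probe sets were higher and 4.03% lower. Of 10 fibroblast markers 4 were lower, among them Col1a1 and Col1a2, which were also counted among the 7 collagens. The mean level of the 10 ran from 6.12 to 6.50 in RU PeF, against 6.56 to 7.21 in control PeF. Of 11 tested smooth muscle and pericyte markers 4 were lower. The 12 measured had a mean from 4.49 to 4.78 in RU PeF, against 4.80 to 5.33 in control PeF. Of 10 tested endothelial markers 2 were lower, Tek and Emcn. The 11 measured had a mean from 5.53 to 5.62 in RU PeF, against 5.97 to 6.24 in control PeF. No fibroblast or endothelial marker was at background in either group. Of 7 tested theca markers 1 was higher and 0 were lower. The 8 measured had a mean from 6.71 to 7.31 in RU PeF, against 6.80 to 7.23 in control PeF. Of 9 granulosa markers 1 was higher and 2 were lower, with a mean from 9.01 to 9.48 in RU PeF, against 8.56 to 9.12 in control PeF. The part of these cell types in the lower stromal genes was not tested.

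In RU PeF minus IM PeF 5 of 38 tested genes were called, all of them stromal and lower, against 5.23% of all tested probe sets (1.98% higher and 3.25% lower). The groups did not overlap in 15 of 38 genes, against 24.5% of all. Lum stood at 9.67, 9.42 and 8.76 in RU PeF, against 10.13, 10.54 and 10.16 in IM PeF, and was 1.99-fold lower (-0.9952 ± 0.19, adjusted p = 0.00347). Mgp (-0.66), Fn1 (-0.81), Loxl1 (-0.98) and Fbn1 (-0.81) were lower as well, with adjusted p of 0.0153, 0.0154, 0.0207 and 0.0278. The other Fbn1 probe set differed by -0.68 and was not called (adjusted p = 0.207). Among the basement membrane genes Lama5 differed by -0.84 ± 0.28 without overlap and was not called (adjusted p = 0.1), and whether the 2 groups of genes differ was not tested. Only Lum kept its call without any single sample, and scaling to a common median left 1 called gene. The count was 2 without IM PeF 2, 3 without IM PeF 3, RU PeF 1 or RU PeF 2, and 1 without RU PeF 3. This comparison and the one with control PeF share the RU PeF samples.

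Indomethacin gave no called member at either time. In IM PeF minus control PeF none of the 38 tested genes was called by limma, as was none of all tested probe sets (0.0%). The groups did not overlap in 9 genes, against 10.6% of all, and 5 members had an unadjusted p under 0.05, as had 11.4% of all tested probe sets (2074). In IM UF minus control PoF none was called, against 0.033% of all tested probe sets. The groups did not overlap in 8 genes, against 17.5% of all, and 5 had an unadjusted p under 0.05, as had 6.97% of all (1265). With array quality weights the counts were 7 before rupture and 1 at estrus. The median difference over the 38 genes was -0.15 before rupture and 0.07 at estrus. Before rupture it was -0.38 over the 11 basement membrane genes and -0.05 over the 27 stromal genes, against 0.04 for all tested probe sets. The groups did not overlap there in 4 of the 11 and 5 of the 27. At estrus the 2 medians were 0.06 and 0.09, against -0.01 for all. Whether the basement membrane and stromal genes differ was not tested. The counts of called members do not show that indomethacin left the genes as they were. Agrn, which had the smallest p of the members before rupture, stood at 5.95, 6.30 and 6.15 in IM PeF, against 6.58, 6.44 and 7.27 in control PeF. This was a difference of -0.63 ± 0.21 (adjusted p = 0.359). Plod2, with the smallest p at estrus, stood at 10.83, 10.63 and 10.07 in IM UF, against 11.57, 11.21 and 11.09 in control PoF. It was 1.72-fold lower without overlap and was not called (-0.78 ± 0.18, adjusted p = 0.154).

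At estrus the unruptured RU UF follicles differed from ruptured control PoF in 6 of 38 tested genes, 1 higher and 5 lower, against 8.69% of all tested probe sets (4.22% higher and 4.47% lower). The groups did not overlap in 15 genes, against 36.2% of all. Lox stood at 6.74, 6.21 and 6.35 in RU UF, against 7.64, 7.81 and 7.99 in control PoF, and was 2.61-fold lower (-1.38 ± 0.22, adjusted p = 0.000651). Mgp stood at 11.53, 11.22 and 11.55 in RU UF, against 11.95, 12.33 and 12.65 in control PoF (-0.88 ± 0.15, adjusted p = 0.00125). Plod2 stood at 10.55, 10.24 and 10.08 in RU UF, against 11.57, 11.21 and 11.09 in control PoF (-1.0025 ± 0.18, adjusted p = 0.00154). These 3 genes did not overlap between the groups and kept their calls without any single sample. Tnc had 5.02, 4.62 and 5.07 in RU UF, against 6.65, 6.28 and 5.80 in control PoF (-1.34 ± 0.32, adjusted p = 0.0134). Lamb2 had 9.0012, 8.90 and 8.65 in RU UF, against 7.81, 8.03 and 8.35 in control PoF (0.79 ± 0.19, adjusted p = 0.0138). Lamb2 was the 1 gene that was higher. Fn1 differed by -0.67 (adjusted p = 0.0325), a call lost without any 1 of the 6 samples (adjusted p up to 0.119), while Lamb2 and Tnc missed the threshold without some samples (up to 0.0813 and 0.0799). The count was 3 without control PoF 1 and 3 without RU UF 2. Scaling to a common median ended the calls of Fn1 (adjusted p = 0.0721) and Lamb2 (0.143).

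RU UF against IM UF set unruptured follicles of the 2 drugs side by side. Of 38 tested genes 5 were called, 1 higher and 4 lower, against 6.95% of all tested probe sets (3.49% higher and 3.45% lower). The groups did not overlap in 11 genes, against 31.2% of all. Mgp stood at 11.53, 11.22 and 11.55 in RU UF, against 12.72, 12.72 and 12.76 in IM UF, and was 2.46-fold lower (adjusted p = 5.62e-05). Lox stood at 6.74, 6.21 and 6.35 in RU UF, against 8.36, 8.10 and 8.13 in IM UF, and was 3.4-fold lower (adjusted p = 0.000118). Tnc stood at 5.02, 4.62 and 5.07 in RU UF, against 6.76, 7.42 and 6.43 in IM UF, and was 3.92-fold lower (adjusted p = 0.00102). No RU UF sample reached the lowest IM UF sample for these 3 genes. Lamb2 had 9.0012, 8.90 and 8.65 in RU UF, against 8.06, 7.76 and 7.53 in IM UF, and was 2.1-fold higher (adjusted p = 0.00209). Spp1, encoding the secreted phosphoprotein osteopontin, differed by -1.66 ± 0.41 (adjusted p = 0.0192) and missed the threshold when any one of 3 of the 6 samples was left out (adjusted p up to 0.111). The doses and dosing hours of the drugs differed, so this comparison is of 2 regimens.

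**Figure D4:**
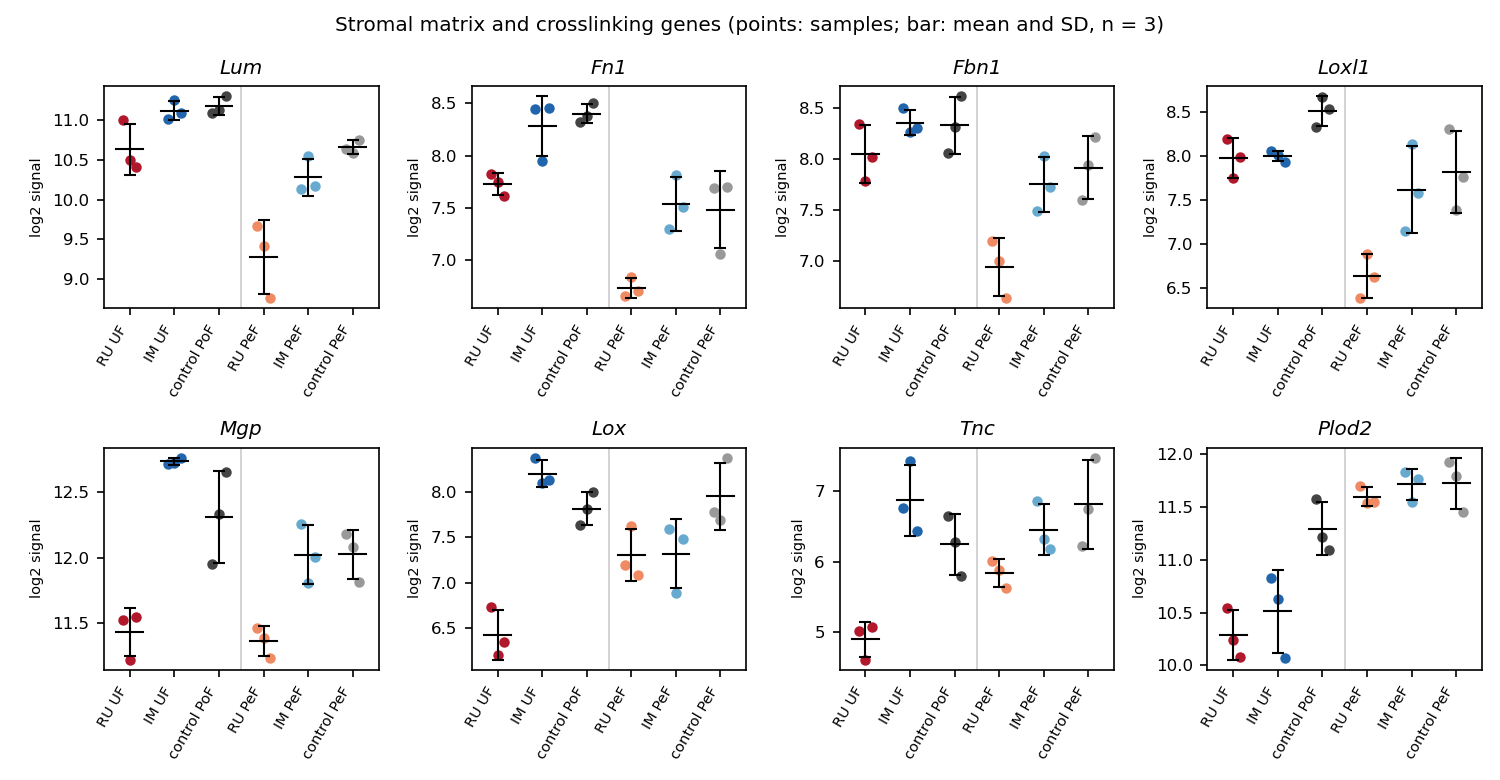
Normalised log2 signal of 8 stromal genes in each sample (points) with group means and SD (bars), in the order RU UF, IM UF, control PoF, RU PeF, IM PeF, control PeF. Lox and Mgp stand lower in RU UF than in IM UF and control PoF, and Lum stands lower in RU PeF than in the other groups.

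At estrus the companion lists moved as follows. Of all tested probe sets 4.22% were higher and 4.47% lower in RU UF than in control PoF. Against IM UF 3.49% were higher and 3.45% lower. The basement membrane collagen Col4a1 was lower in RU UF than in control PoF (-1.11 ± 0.17, adjusted p = 0.000424) and than in IM UF (-1.01 ± 0.17, adjusted p = 0.00132), and 2 of 6 tested genes of that list were lower in each comparison, with none higher. Of 11 stromal collagens 3 were lower in RU UF than in control PoF and 4 than in IM UF. Of 19 tested matrix receptors 4 were higher and 2 lower against control PoF, the integrin chain gene Itga6 being 2.79-fold higher (adjusted p = 6.69e-05). Lamb3, a laminin chain outside the 41 genes, was 3.13-fold higher in RU UF than in control PoF and 4.1-fold higher in RU PeF than in control PeF (adjusted p = 0.000866 and 0.000218). The TGF-beta target Ccn2 was 4.48-fold lower in RU UF than in control PoF and 6.39-fold lower than in IM UF (adjusted p = 9.89e-05 and 2.32e-05). Of 7 tested theca markers 4 were higher and 1 lower in RU UF than in control PoF. The mean level of the 8 measured ran from 6.78 to 7.10 in RU UF, against 5.82 to 6.19 in control PoF. The mean of the granulosa markers ran from 8.94 to 9.14 in RU UF, against 8.29 to 8.46 in control PoF, with 2 of 9 called higher. The mean of the 12 measured smooth muscle markers ran from 5.51 to 5.52 in RU UF, against 5.91 to 6.19 in control PoF and 6.18 to 6.34 in IM UF. Of the 11 tested, none was called against control PoF and 3 were lower than in IM UF. Fibroblast markers averaged 7.02 to 7.17 in RU UF, against 7.39 to 7.71 in control PoF, with 2 of 10 lower. Tcf21 belongs to both lists and was the 1 lower theca marker and 1 of these 2 fibroblast markers. The 11 measured endothelial markers averaged 5.59 to 5.93 in RU UF, against 6.17 to 6.34 in control PoF, with 1 of 10 tested lower. These ranges did not overlap between the groups, and the part of these cell types in the differences at estrus was not tested.

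Over the night, of 19 matrix receptors 10 rose and 2 fell under RU486, 9 rose and 1 fell under indomethacin, and 9 rose and 2 fell in controls. Among all tested probe sets 19.0% rose and 19.9% fell under RU486, 16.3% and 17.0% under indomethacin, and 21.0% and 18.5% in controls. Dag1 encodes dystroglycan, a receptor for laminin, agrin and perlecan, and it rose 2.58-fold under RU486, 2.97-fold under indomethacin and 4.39-fold in controls (adjusted p = 3.94e-05, 1.27e-05 and 4.73e-07). Of 6 basement membrane collagens 1 rose under RU486, 3 rose under indomethacin, and 3 rose and 1 fell in controls. Of 11 stromal collagens 5 rose and 1 fell under RU486, 5 rose under indomethacin, and 5 rose and 1 fell in controls.

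The laminin basement membrane and the stromal matrix were also compared as means over their tested genes, 11 and 27, each sample giving one difference of means. Basement membrane minus stromal mean was 1.17 ± 0.15 in RU UF, 1.00 ± 0.15 in IM UF, 1.09 ± 0.09 in control PoF, 1.17 ± 0.09 in RU PeF, 0.90 ± 0.18 in IM PeF and 1.09 ± 0.29 in control PeF (SD, n = 3 each). These values describe probe sets of different genes and do not rank their RNA levels. The group means spanned 0.28 log2 units, and the SDs within groups ran from 0.09 to 0.29, with the largest in control PeF. When single samples were left out, RU PeF minus IM PeF ran from 0.19 to 0.37 and RU UF minus IM UF from 0.09 to 0.24. Control PoF minus control PeF then ran from -0.14 to 0.14. These differences between groups were not tested. The basement membrane mean was 8.32 ± 0.15 in RU UF, against 7.94 ± 0.10 in RU PeF, 8.41 ± 0.09 in IM UF, against 8.00 ± 0.09 in IM PeF, and 8.40 ± 0.06 in control PoF, against 8.23 ± 0.18 in control PeF (SD, n = 3 each). The stromal mean was 7.14 ± 0.16 in RU UF, against 6.77 ± 0.13 in RU PeF, 7.41 ± 0.18 in IM UF, against 7.11 ± 0.08 in IM PeF, and 7.31 ± 0.13 in control PoF, against 7.14 ± 0.10 in control PeF. Only the control basement membrane samples overlapped between the times in the first mean, and only the control stromal samples in the second. Among the 11 basement membrane genes 1 fell under RU486, 3 under indomethacin and 4 in controls, and among the 27 tested stromal genes 4 fell under RU486, 1 under indomethacin and 2 in controls, against 19.9%, 17.0% and 18.5% of all tested probe sets. The 4 basement membrane falls in controls were not called with median scaling, and the differences between these counts were not tested.

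**Figure D5:**
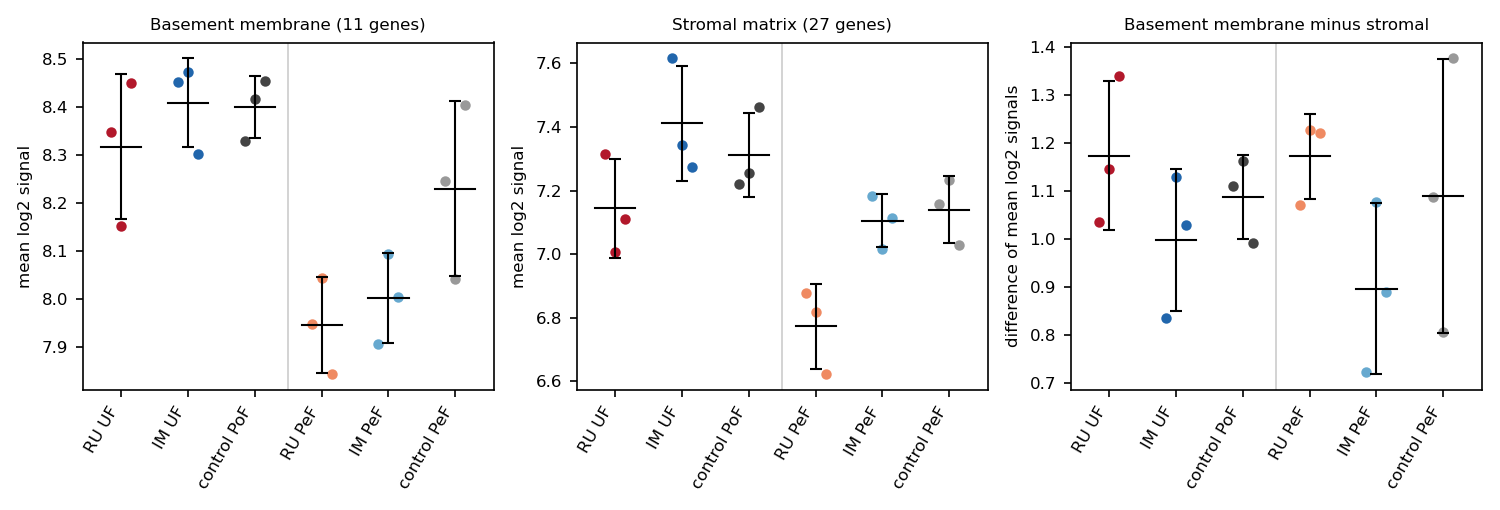
Mean log2 signal of the 11 basement membrane genes (left), of the 27 tested stromal genes (middle) and their difference (right) in each sample (points), with group means and SD (bars), in the order RU UF, IM UF, control PoF, RU PeF, IM PeF, control PeF. In the right panel group means lie between 0.90 and 1.17 and the points of the groups overlap.

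Of the 38 tested genes 6 were called in no comparison: Lamc1, Sparcl1, Postn, Eln, Fbln5 and Fmod. Sparcl1, a relative of Sparc, ran from 4.65 to 6.39 over the 18 samples. Postn, encoding periostin, ran from 3.38 to 6.35, and Eln, encoding elastin, from 2.62 to 5.03. Eln lay above background on only 1 of 3 arrays in IM UF and on 2 of 3 in control PoF and in control PeF. Fbln5, an elastic fibre protein, ran from 2.07 to 5.18, and Fmod, encoding fibromodulin, from 4.13 to 5.62. On control PeF 3 the deposited signal of Fbln5 was 1, the lowest in the data. For such dim genes the lack of a call does not show that they were unchanged. Of the genes that did not pass the filter, Thbs2 ran from 2.07 to 4.92 and Mfap5 from 1.95 to 4.84. Other tested probe sets were present for 8 genes, 10 probe sets in all. The chosen probe set was called in 22 pairs of an other probe set and a comparison. In 21 of these pairs the other probe set had the same sign, and in 12 it was called as well. None was called in the opposite direction. In the control course the other probe sets of Nid1 (1.39, adjusted p = 0.0321) and Fbn1 (1.46, adjusted p = 0.000536) were called where the chosen ones were not.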

How the data were processed

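Total RNA of 18 microdissected samples, 6 groups of 3, was measured on 1-colour arrays. The deposited values are probe set intensities on a linear scale, and the submitters' processing notes name MAS5. The labels do not say how arrays were scaled. From the 31099 probe sets, 57 controls were left out. The other 31042 were quantile normalised, 2.8 (the 20th percentile) was added, and log2 was taken. Probe sets above their array's median on at least 3 arrays were tested (18155). A limma 3.58.1 model (R 4.3.3; lmFit, eBayes with trend) gave each group a mean, with 12 residual degrees of freedom, and Benjamini-Hochberg adjustment was made within each comparison. Figures used Python 3.11.15 and matplotlib 3.10.9. The method was tested on simulated data.

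Background was the brightest of 27 unspiked control probe sets on each array. The members, gene lists and tests were chosen with earlier results of these data known, and the comparisons of the indomethacin course with the RU486 and control courses were added after the data were seen. Values in every sample were given for up to 6 called members per comparison with the smallest adjusted p and no overlap, with at least 1 per role; others shown were chosen after their values were seen. Of the companion lists, up to 2 genes a direction with the smallest adjusted p were eligible; Col3a1, Col4a1, Itga6, Lamb3, Ccn2 and Dag1 were picked after their values were seen. Alternatives were median scaling, unnormalised signals, other pseudocounts, no filter, separate fits, array weights, a replicate block, and leaving out samples.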

Additional observations from a re-analysis of the deposited data

Results flagged for a closer look

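Lox was singled out because its overnight change differed between treatments by a test of the difference itself. The RU486 change minus the indomethacin change was -1.75 (limma, adjusted p = 0.0049). All 3 RU UF samples lay below all 3 RU PeF samples, and all 3 IM UF samples lay above all 3 IM PeF samples. The call was kept without any single sample.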

How the results depend on the processing

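Counts of called members moved with several settings. With array quality weights the counts were 14 for RU PeF against control PeF, 12 for RU UF against control PoF, 11 for RU PeF against IM PeF, 9 for RU UF against IM UF, 7 for IM PeF against control PeF, 1 for IM UF against control PoF, 6 for the RU486 course against the control course, 7 for the RU486 course against the indomethacin course and 2 for the indomethacin course against the control course. With median scaling they were 4 for RU PeF against control PeF, 1 for RU PeF against IM PeF and 1 for the RU486 course against the control course. With only the groups compared in the fit they were 3, 2 and 1 for the same comparisons, and 10 for RU UF against control PoF. With the signals as deposited the count was 0 for the RU486 and indomethacin courses, their difference, and all 4 comparisons of RU486 groups at 1 time, and it was 17, all higher, for the control course. Without the 3 dimmest arrays it was 1 for the RU486 course against the control course and 2 for it against the indomethacin course. The cause was not tested. In the deposited signals 9 results turned sign: in the control course Lama2 0.69, Lama5 0.44, Lamb1 0.75, Lamb2 0.92, Fbln2 0.0098 and Ogn 0.0149, and in RU PeF against control PeF Nid1 0.12, Fn1 0.15 and Mgp 0.23.

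Leaving out 1 sample gave counts of 18 to 21 for the RU486 course, 15 to 18 for the indomethacin course, 14 to 20 for the control course, 4 to 9 for RU PeF against control PeF, 3 to 6 for RU UF against control PoF, 1 to 4 for RU PeF against IM PeF, 4 to 5 for RU UF against IM UF, 0 to 2 for the RU486 course against the control course, 1 to 2 for it against the indomethacin course, and 0 for both comparisons of indomethacin with controls and for their difference. The RU486 course against the control course had 2 without control PeF 1, and 1 without control PeF 2 or RU PeF 1. The RU486 course against the indomethacin course had 2 without IM PeF 2. Genes that kept their call without any single sample were 15 of 23 in the RU486 course, 15 of 19 in the indomethacin course and 13 of 20 in the control course.

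The samples carry replicate numbers, but same-numbered samples did not deviate together: correlations of their deviations ran from -0.30 to 0.12 over 45 pairs. With the number as a replicate block the counts were 23 for the RU486 course, 17 for the indomethacin course, 21 for the control course, 7 for RU PeF against control PeF, 6 for RU UF against control PoF, 5 for each comparison of RU486 with indomethacin at 1 time, 1 for IM UF against control PoF, 0 for IM PeF against control PeF, 1 for the RU486 course against the control course, 1 for it against the indomethacin course and 0 for the indomethacin course against the control course. Precision is limited by the number of arrays and by dim arrays: 45.7% to 75.3% of probe sets lay above background over all arrays, with 45.7% on control PeF 3, 62.0% on IM PeF 2 and 58.1% on IM UF 2, the dimmest. Without those 3 arrays 7 calls ended: Lamb2 and Fbln2 in the control course, Nid1 and Loxl2 in the indomethacin course, Dcn in RU PeF against control PeF, and Fbn1 and Loxl1 in RU PeF against IM PeF (adjusted p 0.0797 to 0.141).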

Other observations

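The overnight counts here stand against 19.0% higher and 19.9% lower of all tested probe sets under RU486. Under indomethacin these shares were 16.3% and 17.0%, and in controls 21.0% and 18.5%. Among laminin chains and basement membrane proteins outside the 41 genes, 5 were tested. Of these, 1 rose and 3 fell overnight under RU486, 1 rose and 3 fell under indomethacin, and 1 rose and 2 fell in controls. Of 7 TGF-beta ligands, receptors and targets, 4 fell under RU486, 1 rose and 3 fell under indomethacin, and 1 rose and 3 fell in controls. Ccn2, a matricellular target of TGF-beta, differed by -0.06 ± 0.28 under RU486 (limma, adjusted p = 0.89), and it rose 4.76-fold under indomethacin and 3-fold in controls (adjusted p = 1.04e-05 and 0.000295). Its overnight change under RU486 differed from that under indomethacin by -2.31 ± 0.40 (adjusted p = 0.00373), and Ccn2 was picked after its values were seen. Of 10 tested endothelial markers 2 fell under RU486, 1 rose and 1 fell under indomethacin, and 1 rose and 2 fell in controls. Of 10 tested leukocyte markers 1 rose and 1 fell under RU486, 1 rose under indomethacin and 1 rose in controls, with Itgam at background in every group. Of 2 tested erythrocyte markers 1 fell in controls. Of 9 granulosa markers 4 rose and 4 fell under RU486, 4 rose and 2 fell under indomethacin, and 3 rose and 4 fell in controls.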
